A study of Homo sapiens with 4 samples.

Results

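The 2 arrays of A549 cells given sunitinib were compared with the 2 arrays of cells that did not receive it. A549 is an established human lung adenocarcinoma line, and dihydroberberine is made by reduction of berberine, a plant alkaloid. The groups were cells given 2 µmol/L sunitinib, cells given 25 µmol/L dihydroberberine plus 2 µmol/L sunitinib, untreated cells and cells given 25 µmol/L dihydroberberine, all in RPMI medium with serum and all profiled at 48 h. Each condition had 1 array, so all 4 of the 4 arrays of the study entered the comparison, 2 against 2, with dihydroberberine present once on each side. The mean log2 signal of the arrays with sunitinib minus the mean of the arrays without it was taken for each gene from its brightest probe set. Genes were kept where at least 1 array reached the median of all gene probe set values, a log2 signal of 6.75, called the floor here. This left 10958 of 18132 genes with a symbol, and 9831 of them reached the floor on all 4 arrays.

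Sunitinib blocks receptor tyrosine kinases, above all the receptors for VEGF and PDGF, KIT, FLT3, CSF1R and RET. Receptor tyrosine kinases act through RAS and ERK, which induce immediate early transcription factors, their own feedback phosphatases and secreted growth factors and cytokines. Sunitinib is also a weak base that collects in lysosomes. When amino acids run short or the endoplasmic reticulum is stressed, the transcription factor ATF4 induces genes of amino acid supply and tRNA charging.

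No p-value is given for these arrays. An exact two-sided permutation test of 2 arrays against 2 cannot go below 0.3333, and in a fit of both drugs the 1 residual degree of freedom is the interaction of the drugs, not replicate error. In place of a test, each gene was asked whether both arrays with sunitinib lay on one side of both arrays without it. For arrays in random order, the chance of such a separation is also 0.3333, shared equally between above and below. Separation alone therefore does not mark a response of a gene. Each gene was also read in 2 pairs that share no array, sunitinib minus untreated and combination minus dihydroberberine. Where the arrays were separated, both pair differences must have the same sign, so only their sizes add to the separation. "Higher" and "lower" below compare these 4 arrays only. In a bulk culture, a lower signal from fewer cells of a kind cannot be told apart from less RNA per cell.

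The dihydroberberine array lay farthest from the sunitinib and untreated arrays. Over the ranked genes the SD of its log2 difference was 0.456 from the sunitinib array, 0.412 from the combination and 0.476 from untreated. The SD was 0.297 between combination and sunitinib, 0.305 between sunitinib and untreated and 0.426 between combination and untreated, so the combination array lay about as far from untreated as from dihydroberberine. The Alu control probe set read 14.86 with sunitinib and 14.86 in the combination, against 14.82 in untreated cells and 14.42 with dihydroberberine, in log2 signal. The median of the 18S rRNA probe sets was 13.96 and 13.94 with sunitinib and in the combination, and 14.17 and 13.49 in untreated and dihydroberberine cells. Array medians differed little, at 6.76 and 6.76 on the arrays with sunitinib and 6.73 and 6.76 on those without. The medians of gene lists are therefore also given for sunitinib minus untreated, the pair without that array, and the array values of a gene show the same pair. The part of the array in any result was not tested.

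Both arrays with sunitinib lay above both others for 1808 genes, 16.5% of those ranked, and below both others for 2249 genes, 20.5%. Arrays in random order would be separated in either direction with a chance of 0.3333. Many of these genes can thus be separated without any effect of sunitinib. Of all ranked genes 48.6% had a positive difference, with a median of -0.0071 on the log2 scale, and the 1st and 99th percentiles were -0.71 and 0.77. At 2-fold or more with the arrays separated, 22 genes were higher, 0.201% of those ranked, and 32 were lower, 0.292%. At 1.5-fold or more the counts were 277 higher, 2.53%, and 171 lower, 1.56%. A further 6 genes in each direction reached 2-fold with overlapping arrays. Among them BEX2 read 8.61 and 9.86 with sunitinib and in the combination, against 7.57 in untreated and 8.68 in dihydroberberine cells.

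The median size of the lower genes was about the same in both pairs, and that of the higher genes was not. The 171 genes at least 1.5-fold lower had median log2 differences of -0.78 for sunitinib minus untreated and -0.73 for combination minus dihydroberberine. Of them 97 were at least 1.5-fold lower in each pair, 44 only against untreated and 30 only against dihydroberberine. The 277 genes at least 1.5-fold higher had medians of 0.38 and 1.04, and 50 reached 1.5-fold in each pair. A further 212 reached it only against dihydroberberine and 15 only against untreated. The dihydroberberine array was the lowest of the 4 in 212 of the 277. At 2-fold 13 of the 32 lower genes and 4 of the 22 higher genes were past 2-fold in each pair. Of the lower genes 12 passed it only against untreated and 7 only against dihydroberberine, and of the higher genes 4 and 14. Where a gene had at least 2 probe sets above the floor, all of them had the same sign in 73 of 88 genes lower by 1.5-fold and in 128 of 163 genes higher by 1.5-fold. These shares were 83.0% and 78.5%. Among all separated genes, whatever the size, they were 76.1% of 1161 lower genes and 72.9% of 1116 higher genes.

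**Figure D1:**
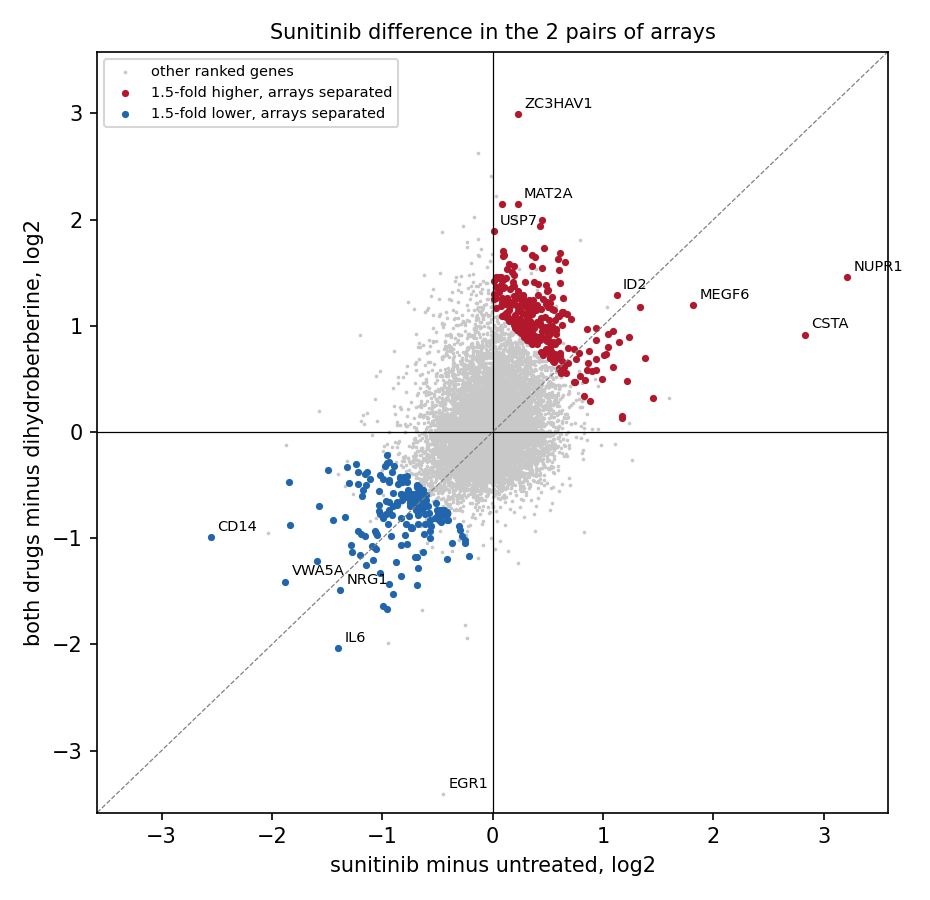
Log2 difference of each of the 10958 ranked genes in the pair sunitinib minus untreated (horizontal axis) and in the pair both drugs minus dihydroberberine (vertical axis), 1 point per gene, with the 277 higher genes in red and the 171 lower genes in blue; the dashed line marks equal differences. The blue points lie around the dashed line, and most red points lie above it, near the vertical axis.

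The lowest gene with all arrays above the floor was IL6, which encodes the secreted cytokine interleukin 6. IL6 read 9.70 with sunitinib and 9.48 in the combination, against 11.10 in untreated and 11.51 in dihydroberberine cells, in log2 signal. The arrays did not overlap, and the difference of the means was -1.72, a signal 3.29-fold lower. Both of its probe sets above the floor were lower, one by 0.79 only. Agreement in direction between probe sets, and separation of the arrays, were conditions for a place among the 25 highest or 25 lowest genes. For those genes, IL6 included, such agreement is therefore no further evidence, and only the sizes add information. The promoter of IL6 is shown first below because it is the lowest gene, and those of CD14 and CD68 because they were the genes past 2-fold lower outside the zinc finger family whose promoter held an AP-1 motif. Both were chosen after their promoters had been searched. AP-1 is the dimer of FOS and JUN proteins that acts downstream of ERK. The windows run from 250 bases before to 50 after the start site, are from RefSeq on GRCh38.p14, and lie at chr7:22726950-22727249 on the plus strand for IL6, chr5:140633126-140633425 on the minus strand for CD14 and chr17:7579388-7579687 on the plus strand for CD68. They read 5′ to 3′ along the gene, and capitals mark the AP-1 motif TGANTCA.
IL6: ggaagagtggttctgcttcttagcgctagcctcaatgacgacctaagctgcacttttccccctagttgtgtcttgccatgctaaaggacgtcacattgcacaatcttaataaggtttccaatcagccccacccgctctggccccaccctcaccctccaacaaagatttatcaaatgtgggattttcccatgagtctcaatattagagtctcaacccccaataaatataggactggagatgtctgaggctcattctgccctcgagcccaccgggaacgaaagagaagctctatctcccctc
CD14: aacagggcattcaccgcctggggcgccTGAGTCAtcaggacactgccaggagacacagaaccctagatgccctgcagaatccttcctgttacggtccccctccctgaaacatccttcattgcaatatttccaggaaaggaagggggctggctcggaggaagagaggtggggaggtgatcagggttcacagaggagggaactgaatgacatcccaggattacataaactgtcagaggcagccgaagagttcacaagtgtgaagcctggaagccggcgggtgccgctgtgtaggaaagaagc
CD68: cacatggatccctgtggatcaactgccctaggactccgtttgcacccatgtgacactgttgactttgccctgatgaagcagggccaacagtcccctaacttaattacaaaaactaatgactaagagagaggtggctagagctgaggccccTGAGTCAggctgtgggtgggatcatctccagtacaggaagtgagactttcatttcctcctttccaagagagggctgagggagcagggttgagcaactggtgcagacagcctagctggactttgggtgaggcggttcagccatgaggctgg
The AP-1 motif began 223 bases before the start site in CD14 and 100 bases before it in CD68, and the letters were not found in the IL6 window. Both strands were searched, and the motifs did not include one another. Of 28 RefSeq windows of 24 genes at least 2-fold lower, 4 held the AP-1 motif, the other two being those of ZNF789 and ZNF226. The share of 14.3% compared with 5.17% of the 13262 windows of all ranked genes and 18.2% of the 22 windows of genes at least 2-fold higher. For 216 windows of genes at least 1.5-fold lower the share was 8.8%, and for 348 windows of genes at least 1.5-fold higher 5.46%. The motifs TGACGTCA (CRE), TGATGCAA (joined C/EBP and ATF) and CACGTG (E-box) were found in 0, 3 and 1 of the 28 windows, against 2.81%, 0.535% and 9.36% of all windows. The 3 windows with TGATGCAA belonged to ARID5B and C1orf54. These are matches of letters, counted as a description.

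Of 12 ranked cytokines and chemokines, IL6 among them, 10 had a negative difference. In 4, or 33.3% beside 20.5% of all genes, both arrays with sunitinib lay below both others, and in 0 above. The median was -0.35, and -0.20 for sunitinib minus untreated. LIF, a cytokine of the IL6 family, read 9.74 and 10.41 with sunitinib and in the combination, against 10.44 and 10.80 in untreated and dihydroberberine cells. CXCL8, a neutrophil chemokine, read 11.49 and 14.04 against 12.83 and 14.55, so that its arrays overlapped. The acute phase and STAT3 list, which IL6 family cytokines drive, had 8 ranked of 21 members. Its median was -0.03, and -0.29 for sunitinib minus untreated. Of the 8, 3 lay below and 1 above, 37.5% and 12.5% beside 20.5% and 16.5% of all genes. In that list FGG, a fibrinogen chain, read 5.57 and 5.49 with sunitinib against 6.85 and 6.63 without, and only the untreated array reached the floor. With values under the floor raised to it FGG was 1.03-fold lower, which is no bound, as the dihydroberberine array was raised too. BCL3, a cofactor of NF-kB, read 7.99 and 8.49 against 8.81 and 8.81. SOCS3, the feedback inhibitor of this pathway, read 10.79 and 10.81 against 11.05 and 11.09, and its arrays were separated by a small amount.

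NRG1, the neuregulin that binds ERBB3 and ERBB4, read 8.42 and 8.04 with sunitinib and in the combination, against 9.80 and 9.53 in untreated and dihydroberberine cells, a difference of -1.44. SUCNR1, the receptor for extracellular succinate, read 8.72 and 8.87 against 10.32 and 10.08, a difference of -1.40. ADM, the vasodilator peptide adrenomedullin, read 9.45 and 9.69 against 10.41 and 11.36, a difference of -1.31, and was highest on the dihydroberberine array. These 3 genes had no overlap, and the pair differences of NRG1 were the closest to each other, at -1.38 and -1.49. ANGPTL4, which inhibits lipoprotein lipase outside the cell, read 8.23 and 8.97 against 9.43 and 10.13, a difference of -1.18. SERPIND1, the thrombin inhibitor heparin cofactor II, read 8.59 and 8.82 against 9.58 and 10.45, a difference of -1.31. IGFBP3, which binds insulin-like growth factors, read 11.75 and 11.50 against 13.09 and 12.30, a difference of -1.07. All 3 were separated, and ANGPTL4 and SERPIND1 were highest on the dihydroberberine array.

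VWA5A, a protein with a von Willebrand factor A domain, was 3.12-fold lower, and its 6 probe sets above the floor gave -1.64 to -0.45. VWA5A read 7.96 and 8.39 with sunitinib and in the combination, against 9.84 and 9.80 in untreated and dihydroberberine cells. The untreated and dihydroberberine arrays of VWA5A were thus close to each other and well apart from both others. LXN, a carboxypeptidase inhibitor, read 9.48 and 9.13 against 10.53 and 10.23, with pair differences of -1.06 and -1.10. GPX3, the extracellular glutathione peroxidase, read 10.06 and 9.31 against 10.98 and 10.29, so that the lowest array without sunitinib lay only just above the highest with it. STC1, a secreted glycoprotein hormone, read 7.06 and 7.23 against 8.01 and 8.10. PRSS23, a serine protease, read 11.30 and 11.15 against 12.86 and 11.85, and its pair difference of -1.57 against untreated compared with -0.70 against dihydroberberine. ARID5B, a DNA-binding protein with an ARID domain, was lopsided in the same way, with -1.85 and -0.47. The remaining named lower genes with all arrays above the floor, among them LY6K, CRYAB, APLP1, SRPX2, CCN5, RAB3C and LSM11, had differences of -1.17 to -0.92. APLP1 and CRYAB stood just inside 2-fold at -1.001 and -1.006, and SRPX2 and GPX3 just outside it at -0.98 and -0.95. CD68, a lysosomal glycoprotein of macrophages whose promoter is shown above, read 7.33 and 7.06 with sunitinib and in the combination, against 8.16 and 8.42 in untreated and dihydroberberine cells, and its 2 probe sets above the floor were lower by 1.09 and 0.55.

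**Figure D2:**
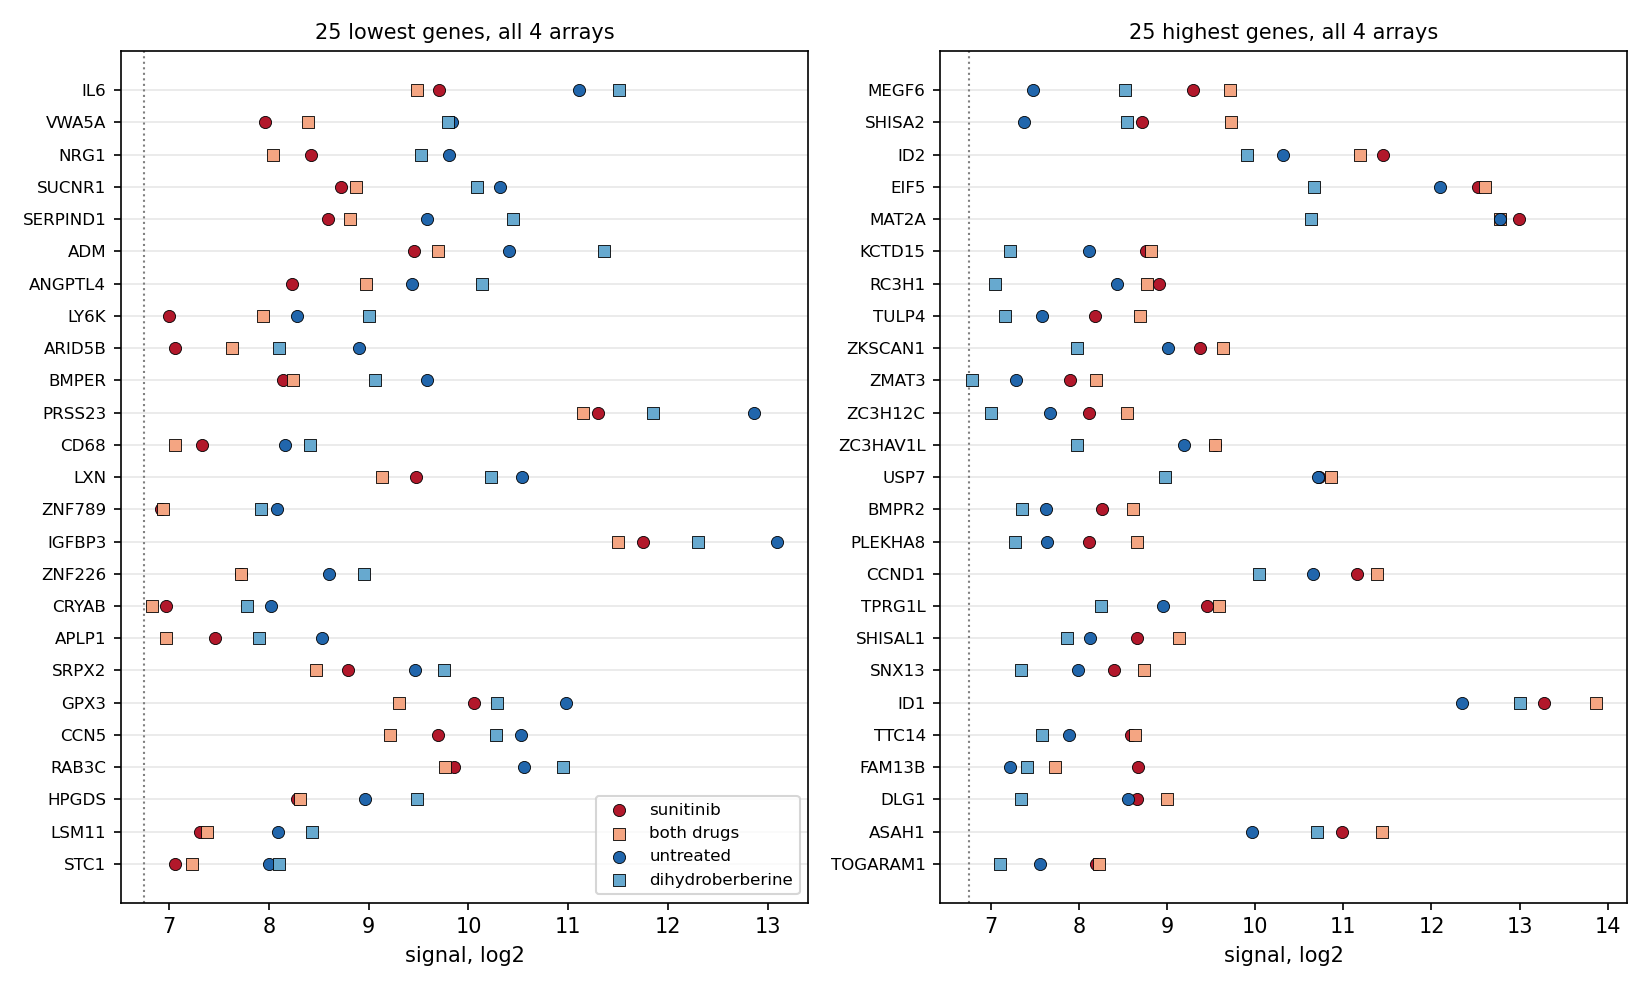
Log2 signal (horizontal axes) of the 25 lowest genes (left panel) and the 25 highest genes (right panel) on each of the 4 arrays, 1 symbol per array, ordered by the difference; the dotted line is the floor of 6.75. In the left panel both red symbols lie left of both blue symbols, and in the right panel the dihydroberberine array is often the far left symbol, as for MAT2A at 10.64 and EIF5 at 10.67.

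Lower genes with arrays under the floor have only a bound on one side. CD14, a co-receptor for bacterial lipopolysaccharide best known from monocytes, read 6.27 and 5.76 with sunitinib and in the combination, against 8.82 in untreated and 6.75 in dihydroberberine cells. With values under the floor raised to it, CD14 was 2.05-fold lower on average, and the untreated array alone was above the floor. The dihydroberberine array lay just under the floor and was raised too, so for CD14 this is no strict bound. SPAG4, a protein of the nuclear envelope, was at least 2.42-fold lower, the linker histone H1-3 at least 2.13-fold and the small GTPase RAB38 at least 2.07-fold.

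Fewer genes were higher in both pairs. MEGF6, a protein with many EGF-like domains, read 9.29 and 9.72 with sunitinib and in the combination, against 7.47 in untreated and 8.52 in dihydroberberine cells, a difference of 1.51 or 2.84-fold. Its second probe set above the floor gave 0.36 only. SHISA2, which inhibits maturation of WNT and FGF receptors in the frog, read 8.71 and 9.72 against 7.37 and 8.54, and its lowest array with sunitinib stood just above the dihydroberberine array. NUPR1, a small stress-induced chromatin protein, read 9.89 and 9.81 against 6.67 and 8.35 and was at least 4.92-fold higher, the untreated array lying under the floor. CSTA, the cysteine protease inhibitor cystatin A, read 7.98 and 8.77 against 5.15 and 7.85, a lower bound of 2.1-fold, and the sunitinib array was only just above the dihydroberberine one.

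ID2 and ID1, which bind and block basic helix-loop-helix transcription factors and are targets of BMP receptors and SMAD proteins, were higher by nearly the same amount in each pair. ID2 read 11.44 and 11.19 with sunitinib and in the combination, against 10.32 in untreated and 9.91 in dihydroberberine cells, a difference of 1.21 or 2.31-fold, and its 2 probe sets above the floor gave 1.21 and 1.27. ID1 read 13.28 and 13.87 against 12.35 and 13.01, with pair differences of 0.93 and 0.86, and its 3 probe sets gave 0.82 to 1.04. Neither gene overlapped, although the sunitinib array of ID1 lay close to the dihydroberberine array. BMPR2, the type II receptor for BMPs, read 8.26 and 8.61 against 7.63 and 7.35, and SMAD1, which carries the signal to the nucleus, read 9.84 and 9.95 against 9.58 and 9.54. BMPER, a secreted BMP-binding protein, read 8.14 and 8.24 against 9.58 and 9.07, a difference of -1.14. CHRD (chordin) and FST (follistatin), extracellular antagonists, had differences of -0.24 and -0.11 with the arrays separated. Of the 13 ranked members of the BMP and ID list, of 25, 4 lay above and 3 below both other arrays, 30.8% and 23.1% beside 16.5% and 20.5% of all genes, with a median of 0.28. That median was -0.01 for sunitinib minus untreated and 0.41 for combination minus dihydroberberine. SMAD6, an inhibitory SMAD, read 8.74 and 9.66 against 8.75 and 7.25 and overlapped, and its probe sets above the floor ran from -0.06 to 1.20.

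Several of the highest genes ranked there through 1 low array. MAT2A, which makes S-adenosylmethionine, read 13.00 and 12.78 with sunitinib and in the combination, against 12.77 in untreated and 10.64 in dihydroberberine cells. EIF5, a translation initiation factor, read 12.53 and 12.61 against 12.09 and 10.67, and the ubiquitin protease USP7 had pair differences of 0.01 and 1.89. DLG1, a scaffold of cell junctions, had 0.10 and 1.67. In these 4 genes the untreated array lay within 0.43 of the sunitinib array. ZC3HAV1, an antiviral zinc finger protein, had 0.23 and 2.99, and its 4 probe sets above the floor ran from -0.45 to 1.80. ASAH1, the lysosomal acid ceramidase, in contrast read 10.99 and 11.44 against 9.96 and 10.70, with pair differences of 1.02 and 0.74 and 5 probe sets from 0.82 to 1.03. Just inside 2-fold stood ZMAT3 at 1.01, and just outside it ZC3H12C at 0.997. WDR37 and NMNAT1 ranked beside them on values partly under the floor, and were at least 1.497-fold and at least 1.21-fold higher.

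Of the 50 higher genes that reached 1.5-fold in each pair, 30 had all arrays above the floor, and of the 97 lower ones 79 did. These genes were picked after their values were seen, and those named here stand high or belong to a shared function. SLC38A1, a glutamine transporter, read 12.26 and 12.34 with sunitinib and in the combination, against 11.48 and 11.60 in untreated and dihydroberberine cells, and its 5 probe sets above the floor gave 0.61 to 0.80. BCAT1, the cytosolic branched-chain aminotransferase, read 10.46 and 10.61 against 9.52 and 10.02. FZD4, a WNT receptor, read 8.32 and 8.29 against 7.31 and 7.56. On the lower side, TM4SF1, a tetraspanin-like surface protein, read 12.12 and 12.56 against 13.34 and 13.48, although 1 of its probe sets gave 0.33. RGS2, a regulator of G protein signalling, read 12.66 and 13.14 against 13.28 and 14.10, and HMGA1, an architectural chromatin protein, 10.53 and 10.66 against 11.27 and 11.57. TNFAIP3, an inhibitor of NF-kB signalling, read 10.61 and 11.02 against 11.24 and 11.68. EFNA1, a ligand of EPH receptors, read 8.76 and 8.93 against 9.78 and 9.68.

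Among the list members named in the following accounts, the probe sets above the floor did not all have the same sign for EGF, CANX, NDUFV3, SLC7A11, SCARB2, MAP1LC3B, BCL2, ABCC4 and AHRR. The values given are those of the brightest probe set. At least one array was under the floor for AXL, IL34, NR4A2, EGR1, RIGI, IFIT3, FAS, AHRR and ITGA2, so their differences are partly unmeasured.

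Of 9 receptors that sunitinib inhibits, 5 were under the floor. FLT1, FLT3, KIT, PDGFRA and RET stayed under it on all 4 arrays, with log2 signals of 3.94 for KIT to 5.12 for PDGFRA. PDGFRB read 6.90 and 6.71 with sunitinib and in the combination, against 7.44 and 6.96 in untreated and dihydroberberine cells, and FLT4 8.04 and 7.95 against 8.13 and 8.19. KDR and CSF1R overlapped between the groups, with differences of 0.13 and 0.11. Both stood at the floor, KDR at 6.66 to 6.92 and CSF1R at 6.57 to 6.81. The background control probe sets of higher GC content had medians of 6.70 to 7.15. On each array KDR and CSF1R read below that median, and so did PDGFRB except in untreated cells. Among 14 ranked other receptor tyrosine kinases MET, the receptor for hepatocyte growth factor, was the 1 gene above both other arrays, at 11.06 and 11.47 against 10.77 and 10.79. TYRO3, another of these receptors, was the 1 gene below both, at 8.23 and 8.26 against 8.66 and 8.33. Each makes up 7.14% of the list, under the shares of all genes. AXL, the GAS6 receptor, read 6.53 and 8.30 against 7.21 and 8.67, lower in each pair, although the combination array lay above the untreated array. The NRG1 receptors ERBB3, at 5.39 to 5.74, and ERBB4, at 4.27 to 4.77, were under the floor on all 4 arrays. Of 6 ranked ERBB ligands NRG1, HBEGF and EGF lay below, 50% beside 20.5% of all genes. HBEGF read 7.09 and 7.07 against 7.36 and 7.71, and EGF, counted among these, differed by -0.09 only. Of 12 angiogenic growth factors 3 lay below, 25.0%, namely ANGPTL4, IL34 and CSF1, and PDGFA lay above at 8.97 and 9.16 against 8.80 and 8.64.

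ERK feedback genes and immediate early factors had negative medians, and the arrays overlapped for 12 of 17 and 12 of 16 of them. Of all 10958 ranked genes 4057 were separated, so overlap was also the more common case over all genes. The 17 ranked ERK feedback and output genes had a median of -0.37, and -0.30 for sunitinib minus untreated, and 12 of them were negative. Of the 17, 3 were separated below and 2 above, 17.6% and 11.8% beside 20.5% and 16.5% of all genes. DUSP6, the cytosolic ERK phosphatase, read 11.01 and 11.94 with sunitinib and in the combination, against 11.56 and 13.03 in untreated and dihydroberberine cells. DUSP5, its nuclear counterpart, read 9.02 and 10.78 against 9.66 and 12.46. Both were lower within each pair, and the combination array of each lay above the untreated array. ETV4, an ETS factor, was separated at 10.58 and 10.75 against 10.95 and 11.12, and EPHA4, an ephrin receptor, at 8.14 and 8.50 against 8.51 and 9.16. CCND1, cyclin D1, and SPRY4, a feedback inhibitor of receptor tyrosine kinases, lay above. CCND1 read 11.16 and 11.38 against 10.66 and 10.04, and its 4 probe sets above the floor gave 0.43 to 0.92.

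Of 16 ranked immediate early and AP-1 factors, EGR1 had the widest difference, with 6.23 and 8.20 with sunitinib and in the combination, against 6.68 in untreated and 11.62 in dihydroberberine cells. The sunitinib and untreated values lie under the floor, so only combination minus dihydroberberine, at -3.41, was measured on both sides. NR4A2, an orphan nuclear receptor, was the 1 member separated below, at 7.27 and 6.70 against 7.69 and 7.89. The Krüppel-like factors KLF2, KLF4 and KLF6 were separated above by 0.41, 0.27 and 0.20. The list had a median of -0.13, and it was 0.04 for sunitinib minus untreated. Its 1 member below and 3 members above made up 6.25% and 18.75%, beside 20.5% and 16.5% of all genes.

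Of 15 genes of prostaglandin synthesis and reception 7 were ranked, and 4 of these lay below both other arrays, 57.1% beside 20.5% of all genes, and 0 above. The median was -0.11, and -0.05 for sunitinib minus untreated. The synthase TBXAS1, counted among the 4, differed by -0.11 only. PTGER4, a receptor for prostaglandin E2, read 8.27 and 9.20 with sunitinib and in the combination, against 9.46 and 9.80 in untreated and dihydroberberine cells. PTGES, which makes prostaglandin E2, read 9.73 and 9.75 against 10.41 and 10.52, and PLA2G4A, the phospholipase that frees arachidonic acid, 9.12 and 9.44 against 9.45 and 9.87. HPGDS, a prostaglandin D2 synthase that stood among the 25 lowest genes, read 8.28 and 8.31 against 8.96 and 9.49.

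Chaperones of the endoplasmic reticulum had 14 of 22 ranked members below both other arrays, 63.6% beside 20.5% of all genes, and 1 above. Their median was -0.28, with -0.36 for sunitinib minus untreated and -0.15 for combination minus dihydroberberine. CALR, a calcium-binding lectin chaperone, read 8.66 and 8.47 with sunitinib and in the combination, against 9.69 and 9.15 in untreated and dihydroberberine cells, and was the 1 member past 1.5-fold. PDIA4, a disulfide isomerase, read 12.80 and 12.66 against 13.46 and 13.17, and MANF, a secreted stress factor, 12.15 and 12.20 against 12.88 and 12.48. HSPA5, the lumenal Hsp70 chaperone BiP, read 13.79 and 13.68 against 14.13 and 13.92. CANX, the membrane-bound lectin calnexin, was the exception above, with 13.79 and 13.84 against 13.69 and 13.71.

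The interferon response list had 9 of 23 ranked members below and 2 above, 39.1% and 8.70% beside 20.5% and 16.5% of all genes, with a median of -0.10, and -0.14 for sunitinib minus untreated. IRF9, the DNA-binding subunit of the factor that interferon activates, read 7.76 and 7.80 with sunitinib and in the combination, against 8.49 and 8.48 in untreated and dihydroberberine cells. OAS1, an oligoadenylate synthetase, read 11.41 and 11.52 against 12.04 and 12.001. For both genes the untreated and dihydroberberine arrays were nearly equal. IFI44 read 8.79 and 8.997 against 9.21 and 9.45 and ISG15, a ubiquitin-like modifier, 8.25 and 8.11 against 8.57 and 8.48. RIGI, a sensor of viral RNA, and IFIT3 lay above, RIGI at 7.06 and 7.25 against 6.32 and 6.78 and IFIT3 at 7.04 and 7.26 against 6.55 and 6.59. The untreated array of RIGI and both arrays of IFIT3 without sunitinib were under the floor, and each gene was at least 1.31-fold higher.

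**Figure D3:**
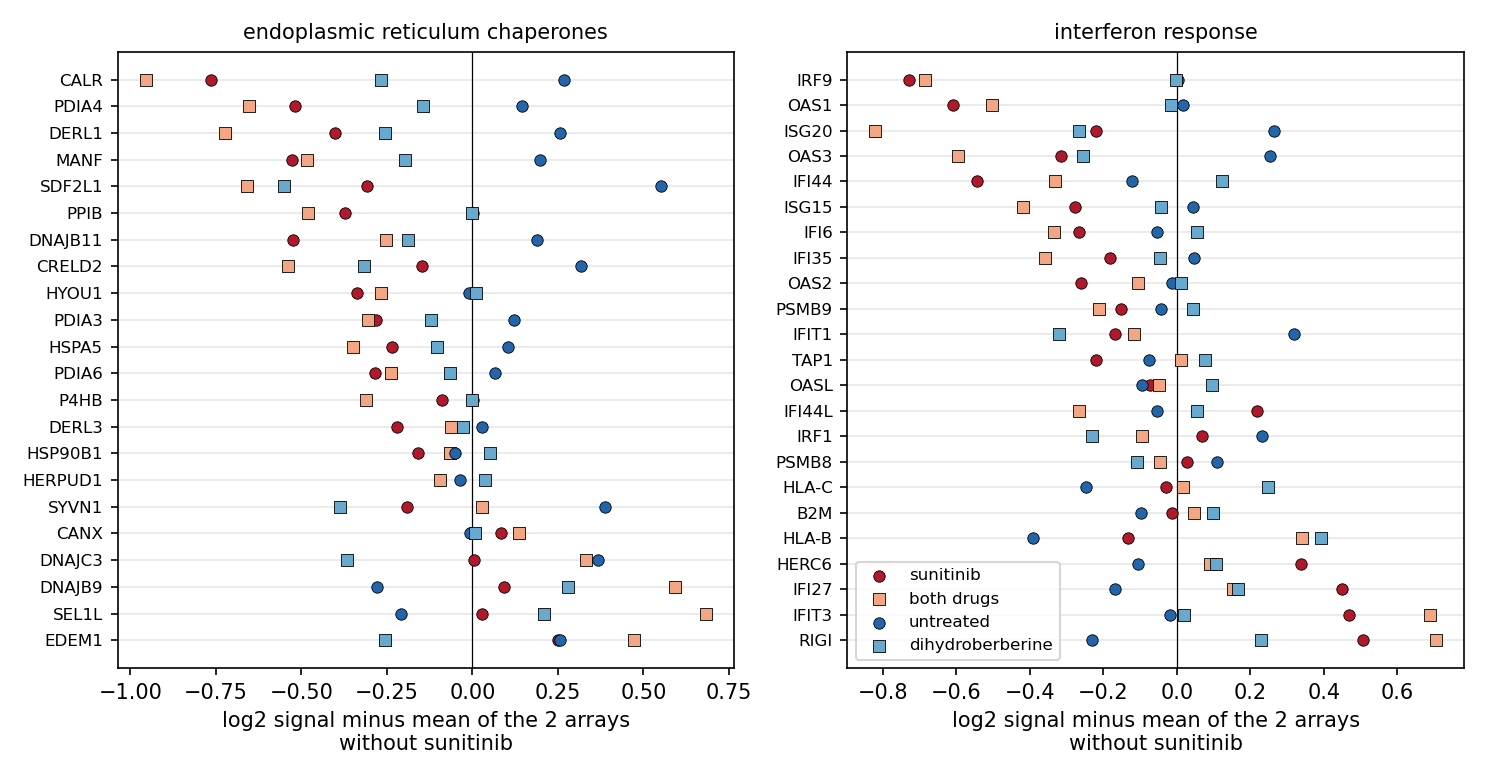
Log2 signal on each array minus the mean of the 2 arrays without sunitinib (horizontal axes) for the 22 ranked chaperones of the endoplasmic reticulum (left) and the 23 ranked interferon response genes (right), 1 symbol per array, ordered by the difference. Both red symbols lie left of both blue symbols for 14 chaperones and 9 interferon genes, and for the upper rows on the right, IRF9 and OAS1, the blue symbols nearly coincide.

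The 34 ranked genes of glycolysis and hypoxia had 12 below and 0 above, or 35.3% below beside 20.5% of all genes, with medians of -0.31 for sunitinib minus untreated and -0.08 for combination minus dihydroberberine. P4HA2, a collagen prolyl hydroxylase, read 9.60 and 9.66 with sunitinib and in the combination, against 10.82 and 10.04 in untreated and dihydroberberine cells. GPI, which isomerizes glucose 6-phosphate, read 12.19 and 11.97 against 12.81 and 12.33. Of 15 PPAR targets and fatty acid oxidation genes 6 lay below, 40.0%, and 0 above, with medians of -0.09 over both pairs and -0.19 for sunitinib minus untreated. PDK4, a kinase that inhibits pyruvate dehydrogenase, read 8.81 and 8.73 against 9.75 and 9.20, and the nuclear receptor PPARG 7.45 and 7.90 against 7.94 and 8.47. Mitochondrial complex I had 14 of 36 ranked subunits below, 38.9%, and 1 above, and the 14 differed by 0.13 to 0.32. The median of the 36 was -0.13, and -0.14 for sunitinib minus untreated. NDUFV3 was the lowest subunit at 10.59 and 10.72 against 10.92 and 11.03, although its probe sets above the floor ran from -0.32 to 0.19. Cholesterol synthesis had 2 of 22 below, 9.09%, and fatty acid synthesis 2 of 16, 12.5%, both under the share of all genes, and neither had a member above.

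ATF4 targets and aminoacyl tRNA synthetases had more members above than below, mainly against untreated. Of 34 ranked ATF4 targets 12 lay above and 5 below, 35.3% and 14.7% beside 16.5% and 20.5% of all genes, and the median was 0.17, with 0.31 against untreated and -0.005 against dihydroberberine. NUPR1, whose values are given above, belongs to this list and had its largest difference, at 2.34. Its pair differences were 3.21 against untreated, where that array was under the floor, and 1.46 against dihydroberberine. ASNS, asparagine synthetase, read 13.74 and 13.73 with sunitinib and in the combination, against 12.84 in untreated and 13.70 in dihydroberberine cells. ATF5, a related transcription factor, read 8.81 and 8.34 against 7.88 and 7.65. The amino acid exchanger SLC7A11 read 12.41 and 12.66 against 12.07 and 11.79. SLC7A5, another exchanger, read 12.05 and 11.81 against 11.76 and 10.84. The 3 genes ATF5, SLC7A11 and SLC7A5 were thus separated without the untreated array being the lowest. DDIT4 and CTH lay below, DDIT4, an inhibitor of mTORC1, at 13.67 and 13.60 against 14.01 and 14.02. Of 19 ranked cytosolic synthetases 7 lay above and 2 below, 36.8% and 10.5%, with medians of 0.42 against untreated and 0.01 against dihydroberberine. WARS1, which charges tryptophan tRNA, read 13.13 and 13.08 against 11.96 and 12.94, and QARS1, for glutamine, lay below at 11.38 and 11.41 against 11.83 and 11.86.

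**Figure D4:**
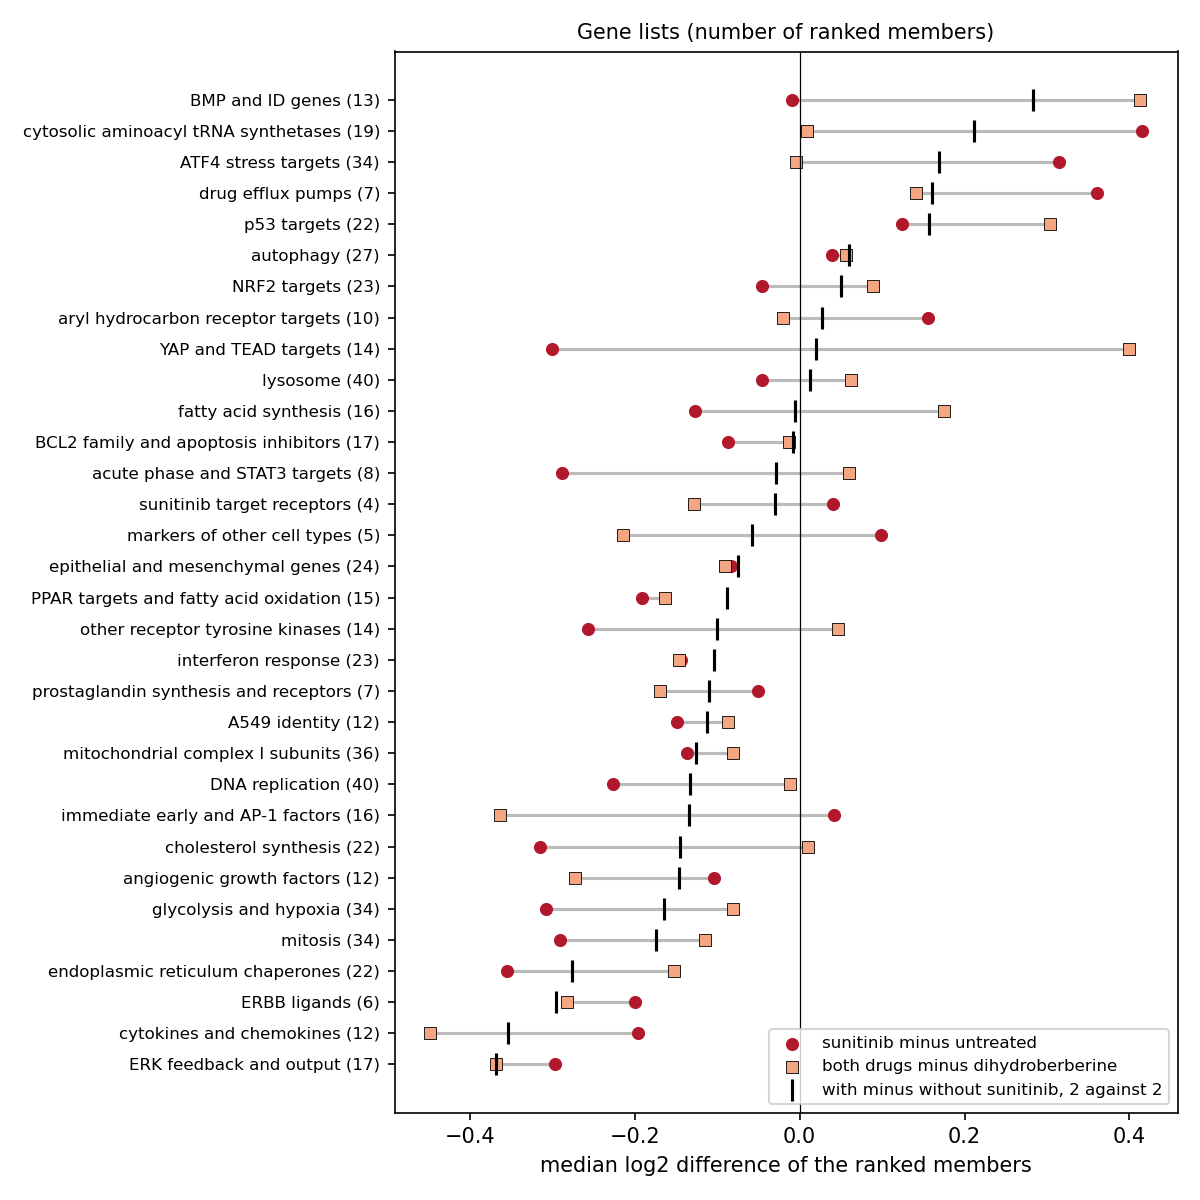
Median log2 difference of the ranked members of each list (horizontal axis), with the number of ranked members in brackets; circles give sunitinib minus untreated, squares both drugs minus dihydroberberine, and bars the difference of 2 arrays against 2. Circle and square lie on the same side of 0 for the ERK feedback, cytokine and chaperone lists, at -0.30 and -0.37, -0.20 and -0.45, and -0.36 and -0.15, and on opposite sides for YAP and TEAD targets, at -0.30 and 0.40.

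Of 40 ranked lysosomal genes 10 lay above and 5 below, 25.0% and 12.5% beside 16.5% and 20.5% of all genes, with a median of 0.01, and -0.05 for sunitinib minus untreated. Beside ASAH1, GRN (progranulin) read 10.70 and 11.03 with sunitinib and in the combination, against 10.10 and 10.32 in untreated and dihydroberberine cells, and CTSD, the protease cathepsin D, 11.30 and 11.22 against 10.76 and 10.78. SCARB2, a lysosomal membrane protein, read 12.33 and 12.58 against 12.06 and 12.09. SMPD1, acid sphingomyelinase, and CTSB, cathepsin B, lay below by 0.39 and 0.30. Of 27 autophagy genes 5 lay above and 2 below, 18.5% and 7.41%, with medians of 0.06 over both pairs and 0.04 for sunitinib minus untreated. MAP1LC3B, the LC3 membrane tag, lay above at 11.19 and 11.50 against 11.10 and 10.94, and its relative GABARAPL1 below at 8.70 and 8.51 against 9.23 and 9.05.

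Targets of p53 had 6 of 22 ranked members above and 2 below, 27.3% and 9.09% beside 16.5% and 20.5% of all genes, with a median of 0.16 and positive medians in both pairs, 0.12 and 0.30. ZMAT3, an RNA-binding protein, read 7.89 and 8.19 with sunitinib and in the combination, against 7.28 and 6.78 in untreated and dihydroberberine cells. SESN1, a stress-induced inhibitor of mTORC1, read 8.07 and 8.51 against 7.62 and 7.56, and the death receptor FAS 7.40 and 7.84 against 6.71 and 7.05. BCL2 and XIAP, which restrain apoptosis, were higher by 0.75 and 0.76 on the brightest probe sets, with the dihydroberberine array the lowest at 7.33 and 9.13. The probe sets of BCL2 above the floor ran from -0.37 to 0.75. Among 7 ranked drug efflux pumps ABCG2, a transporter that also carries kinase inhibitors, read 9.95 and 10.01 against 10.63 and 10.59. ABCC4 and ABCC2, pumps of the MRP family, were higher, ABCC4 at 9.47 and 9.63 against 9.08 and 9.12. For ABCG2 and ABCC4 the untreated and dihydroberberine arrays were nearly equal. Mitosis genes had 6 of 34 ranked members below and 2 above and DNA replication genes 3 of 40 below and 4 above, each under the matching share of all genes. KIF2C, a microtubule depolymerase, read 10.01 and 9.64 against 10.53 and 10.18, and CDT1, an origin licensing factor, 9.12 and 8.56 against 9.86 and 9.17.

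Targets of NRF2 had 5 members above and 5 below of 23, 21.7% each, and those of the aryl hydrocarbon receptor 1 above and 2 below of 10, 10.0% and 20.0%, beside 16.5% above and 20.5% below of all genes. AHRR, the repressor of that receptor, was the member above, at 7.30 and 7.90 with sunitinib and in the combination against 7.11 and 6.42 in untreated and dihydroberberine cells. Of 24 epithelial and mesenchymal genes 5 lay below and 3 above, 20.8% and 12.5%, with the integrin ITGA2 at 7.48 and 8.10 against 6.10 and 7.40. Markers of A549 cells were present on all arrays, with a log2 summed signal over 14 genes of 17.37 and 17.30 with sunitinib and 17.47 and 17.39 without. The summed signal of 13 markers of other cell types was 10.30 and 10.15 with sunitinib and 10.74 and 10.57 without, and 4 or 5 of them reached the floor on an array. CD14 and CD68, both monocyte and macrophage markers, were the 2 members below both other arrays, while PTPRC, the marker of all leukocytes, was under the floor on all 4 arrays at 3.81 to 3.92.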

How the data were processed

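Total RNA of A549 cells from 4 conditions was hybridised to 1 array each. Per the labels' protocols the RNA was amplified into biotin-labelled cRNA with an Affymetrix kit, while other fields name Agilent and Cy3. The control probe sets carry Affymetrix names, and the deposited values were read as log2 signals per probe set. Affymetrix Expression Console is named in the submitters' processing notes, but its version, the summarization and any normalization are not stated in those sources.

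The table held 49395 probe sets, of which 102 were controls. Of the rest 44988 had 1 gene symbol, 1832 had several and were not used, and 2473 are unnamed here. RefSeq held 44961 of the named ones. The brightest probe set stood for a gene, and a gene needed 1 array at or above the median. The named genes were the 25 highest and 25 lowest that were separated, above the floor on all arrays and of the same sign in all probe sets above it, then 5 dim genes in each direction, the 2 on each side of 2-fold, and up to 5 members of each of 32 lists. Further separated members of lists, and genes at 1.5-fold in both pairs, were named after their values were seen. The gene lists and the comparison were chosen with earlier results of these data known. A bound was set with values under the floor raised to it. The code of the ranking was run on simulated data, with equal changes added to both arrays with sunitinib and no dihydroberberine effect. That run checked the code and not the calls made here. Python 3.11.15, numpy 2.4.6 and pandas 2.3.3 were used. Alternatives were other probe set rules, floors and normalizations, each array left out and each pair alone.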

Additional observations from a re-analysis of the deposited data

Results flagged for a closer look

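YAP and TEAD targets had a median log2 difference of -0.3003 for sunitinib minus untreated and of 0.3995 for combination minus dihydroberberine, over 14 ranked members, so the pairs pointed in opposite directions. Fatty acid synthesis genes did the same, with -0.1268 and 0.175 over 16 ranked members. The difference between the pairs was not tested in either list. The Alu control probe set, which belongs to no gene comparison, was higher by 0.2388 on the arrays with sunitinib than on those without, where the dihydroberberine array read 14.42.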

How the results depend on the processing

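No paired analysis was possible because each condition has 1 array, so a replicate number cannot serve as a block. The 2 pairs of arrays matched on dihydroberberine were read as differences only. When a gene's probe sets were averaged, 5 genes were 2-fold higher and 18 lower, and 97 were 1.5-fold higher. With the floor at the 75th percentile the counts were 13 and 16 at 2-fold and 155 and 108 at 1.5-fold. For sunitinib minus untreated alone 64 genes were 2-fold lower, and 176 were higher and 414 lower by 1.5-fold. For combination minus dihydroberberine alone 305 genes were 2-fold higher, and 1131 were higher and 301 lower by 1.5-fold. With each array left out in turn the counts ranged from 29 to 289 for 2-fold higher, 45 to 82 for 2-fold lower, 261 to 967 for 1.5-fold higher and 305 to 508 for 1.5-fold lower. Without the dihydroberberine array 41 genes were 2-fold higher, 8 of them among the 22, and 68 were lower, 20 of them among the 32. Without the untreated array 289 were higher, 16 among the 22, and 82 lower, 22 among the 32. Fewer arrays make separation easier to reach. No floor, quantile normalization, other probe set choice by suffix and values raised to the floor each kept the 4 counts within 1.5 times.

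List medians changed sign as follows. Angiogenic growth factors had 0.1189 at the 75th percentile floor. Over the 4 left-out arrays, other receptor tyrosine kinases ranged from -0.1892 to 0.0066, immediate early and AP-1 factors from -0.4655 to 0.129, tRNA synthetases from -0.0276 to 0.3949, cholesterol synthesis from -0.3968 to 0.0816, DNA replication from -0.4283 to 0.1593 and mitosis from -0.3415 to 0.0282. The sign turned without the dihydroberberine array for other receptor tyrosine kinases (0.0003) and immediate early factors (0.129), without the sunitinib array for the same lists (0.0066 and 0.0026), without the untreated array for tRNA synthetases, cholesterol synthesis, DNA replication and mitosis, and without the combination array for DNA replication (0.0403) and mitosis (0.0066). For sunitinib minus untreated the sign turned for immediate early factors (0.0419) and BMP and ID genes (-0.0095). For combination minus dihydroberberine it turned for other receptor tyrosine kinases (0.0465), ATF4 targets (-0.0047) and cholesterol synthesis (0.0106). Among genes, the ranges over left-out arrays were -2.5581 to 0.2381 for DUSP5, -4.3995 to 0.534 for EGR1, -1.7388 to 0.1485 for DUSP1, -1.5097 to 0.1988 for JUN, -2.5564 to 0.4877 for MMP1 and -0.1446 to 1.3508 for NDUFC2, where the sign turned without the dihydroberberine array. They were -1.6591 to 0.0778 for MAFF, -2.1967 to 0.3558 for CXCL8, -1.2572 to 0.0275 for CCN2 and -1.4546 to 0.0251 for PLAU, where it turned without the sunitinib array. SMAD6 had -0.0559 with probe sets lacking a suffix and -0.0113 for sunitinib minus untreated, where NDUFC2 had -0.1164. The cause of these changes was not tested, and with 1 array a condition no value has a replicate error.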
